A study of Mus musculus with 2 samples.

Results

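Ctla2a and Ctla2b are neighbouring paralogous genes of mouse chromosome 13, and they were the 2 genes, of 32285 in the count matrices, whose symbol was Ctla2a or Ctla2b. They were singled out because their levels, the share of cells in which they were detected and the ratio between the libraries had been seen to vary across cell types of these same data, so those values are given as a description with no test. The cells were mononuclear cells of mouse limb muscle, profiled on the 10x Genomics droplet platform, which counts RNA molecules by unique molecular identifiers (UMIs). There were 2 libraries, 1 from mice given Maraviroc (MVC), a small-molecule drug, and 1 from mice given DMSO, the solvent. The study's methods describe aged C57BL/6 mice, injected intraperitoneally with Maraviroc, and the labels state neither the dose, the duration nor the number of mice behind a library. The study's results describe these single-cell data under its high-dose, short-term treatment of aged mice. Red blood cells were lysed and live cells were sorted in both groups.

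The genes code for small proteins that resemble the propeptide of cysteine cathepsins, the segment that keeps those lysosomal proteases inactive until it is cleaved off, and CTLA-2α is known as an inhibitor of cathepsin L-like proteases. Both were first described from activated T cells and mast cells. Ctla2a is also known from endothelial cells (ECs), the lining of blood and lymph vessels, which in muscle are mainly those of the capillary bed.

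On GRCm38, Ctla2a (ENSMUSG00000044258) lies at chr13:60934155-60936625 and Ctla2b (ENSMUSG00000074874) at chr13:60895350-60897447, both on the minus strand and both with 5 exons in their first transcript model. Their start sites are 39178 bases apart, and Tpbpb lies between them. The coding sequences, of 411 bases in Ctla2a and 339 in Ctla2b, were identical at 326 of 339 aligned bases (96.17%). The 250 bases before the 2 start sites were identical at 208 of 228 aligned bases (91.23%), with 44 gap positions. These upstream sequences are shown because the pattern of the genes over cell types was partly alike (r = 0.779 over 32 groups) although their levels were not. They come from RefSeq, are given 5′ to 3′ on the minus strand, and cover chr13:60936626-60936875 for Ctla2a and chr13:60897448-60897697 for Ctla2b.
Ctla2a: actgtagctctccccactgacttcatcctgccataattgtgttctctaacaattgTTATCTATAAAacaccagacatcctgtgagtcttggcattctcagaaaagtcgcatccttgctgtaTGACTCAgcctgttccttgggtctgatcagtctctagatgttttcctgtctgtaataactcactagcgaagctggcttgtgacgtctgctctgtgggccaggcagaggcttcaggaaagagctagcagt
Ctla2b: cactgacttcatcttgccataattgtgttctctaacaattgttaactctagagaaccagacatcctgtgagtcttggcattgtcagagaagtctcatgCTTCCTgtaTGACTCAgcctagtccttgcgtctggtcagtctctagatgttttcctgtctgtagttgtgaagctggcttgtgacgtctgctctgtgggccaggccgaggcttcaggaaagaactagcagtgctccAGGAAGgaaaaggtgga
Capitals mark matches, on either strand, to 4 of 8 motifs that were searched, a choice made with the levels known. The AP-1 motif TGANTCA occurred once in each sequence, 129 bases before the start of Ctla2a and 143 bases before that of Ctla2b, and in 6.749% of 32851 mouse promoter windows of the same length. The GATA motif AGATAA (9.988% of windows) and the TATA motif TATAAA (12.37%) occurred in Ctla2a only, in matches that shared 1 base and ran from 195 to 185 bases before the start. The ETS motif AGGAAG (29.48% of windows) occurred in Ctla2b only, at 152 and 17 bases before the start. The E-box CACGTG, GC box GGGCGG, KLF motif CCACCC and CRE TGACGTCA had no match in either window. A match is a description of these letters and is neither a binding site nor a cause.

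Because the genes are so alike, the division of reads between them is uncertain. Of the 50-base words in the last 500 bases of the transcripts, 0 of 451 in Ctla2a occurred in Ctla2b, and 42 of 451 (9.31%) in Ctla2b occurred in Ctla2a. Over the whole transcripts the shares were 7.1% and 11.85%. Whether the kit read the 3′ or the 5′ end of the RNA is not given in the sources used here, and Ctla2b is the gene whose counts are the less certain.

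After cells with under 500 genes or over 10% mitochondrial UMIs were removed, 5437 of 5812 barcodes remained in the DMSO library and 5454 of 6047 in the MVC library, with a median of 5802 and 5195 UMIs per cell. They formed 27 clusters, named from fixed marker lists as 17 cell classes, and 8 barcodes occurred in both libraries. With 1 library per group there was no replicate, so no test was made, and intervals (95%, exact Poisson, conditional binomial for ratios, or exact binomial for shares) cover counting error only. All defining lists of the 4 EC classes were detected in full in their own class. The summed level of the 12 capillary markers in Capillary EC-like cells was 25000 UMIs per 1e6 UMIs (CPM) in DMSO and 15191 in MVC. The same list was lower in MVC in the other EC classes too. With DMSO first, it was at 14089 and 7087 CPM in Arterial EC-like, 13822 and 11125 in Venous EC-like and 2892 and 1803 in Lymphatic EC-like cells.

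Across all cells Ctla2a had 17082 UMIs in the DMSO library and 4668 in the MVC library, and Ctla2b had 913 and 409. EC-like cells, 43.6% and 40.3% of the cells, held 76.2% and 69.7% of the Ctla2a UMIs. They held 81.3% and 70.2% of the Ctla2b UMIs. Both genes were thus mainly endothelial in these libraries, with smaller sources that are described further on. Levels are in CPM, the UMIs of the gene per 1e6 UMIs of the class and library, a ratio is MVC over DMSO, and a pair of values is DMSO first.

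Within the endothelium, Ctla2a was high in capillary, venous and lymphatic cells and low in arterial cells. In Capillary EC-like cells (1723 and 1630 cells) it was at 1456.5 CPM (95% interval 1427 to 1486) in DMSO and 438 CPM (419 to 456) in MVC. In Venous EC-like cells (249 and 213 cells) it was at 1320 and 454 CPM. In Lymphatic EC-like cells (75 and 79 cells) it was at 857 and 364 CPM. Arterial EC-like cells (322 and 275 cells), which line the vessels that feed the capillary bed, stood apart at 129 CPM (114 to 147) and 95.0 CPM (80.6 to 111). The capillary level was 11.3-fold the arterial level in DMSO (9.90 to 12.8) and 4.61-fold in MVC (3.91 to 5.46). Capillary and venous cells were close to each other, with a fold of 1.10 (1.06 to 1.15) in DMSO and an interval that included 1 in MVC (0.963, 0.885 to 1.05). The lymphatic level was below the capillary one in both libraries, by 1.70-fold in DMSO and 1.20-fold in MVC.

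Ctla2b was spread more evenly over the endothelium. Its level was 82.1 CPM in Capillary EC-like, 37.1 in Arterial EC-like, 35.7 in Venous EC-like and 97.8 in Lymphatic EC-like cells of the DMSO library. The capillary level was 2.22-fold the arterial level (1.72 to 2.89) and did not separate from the lymphatic one (0.840, 0.646 to 1.11). In the MVC library the levels were 39.1, 30.04, 19.4 and 23.1 CPM, and capillary and arterial cells no longer separated (1.30-fold, 0.948 to 1.82). The gap between capillary and arterial cells was thus smaller for Ctla2b than for Ctla2a in each library.

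**Figure D1:**
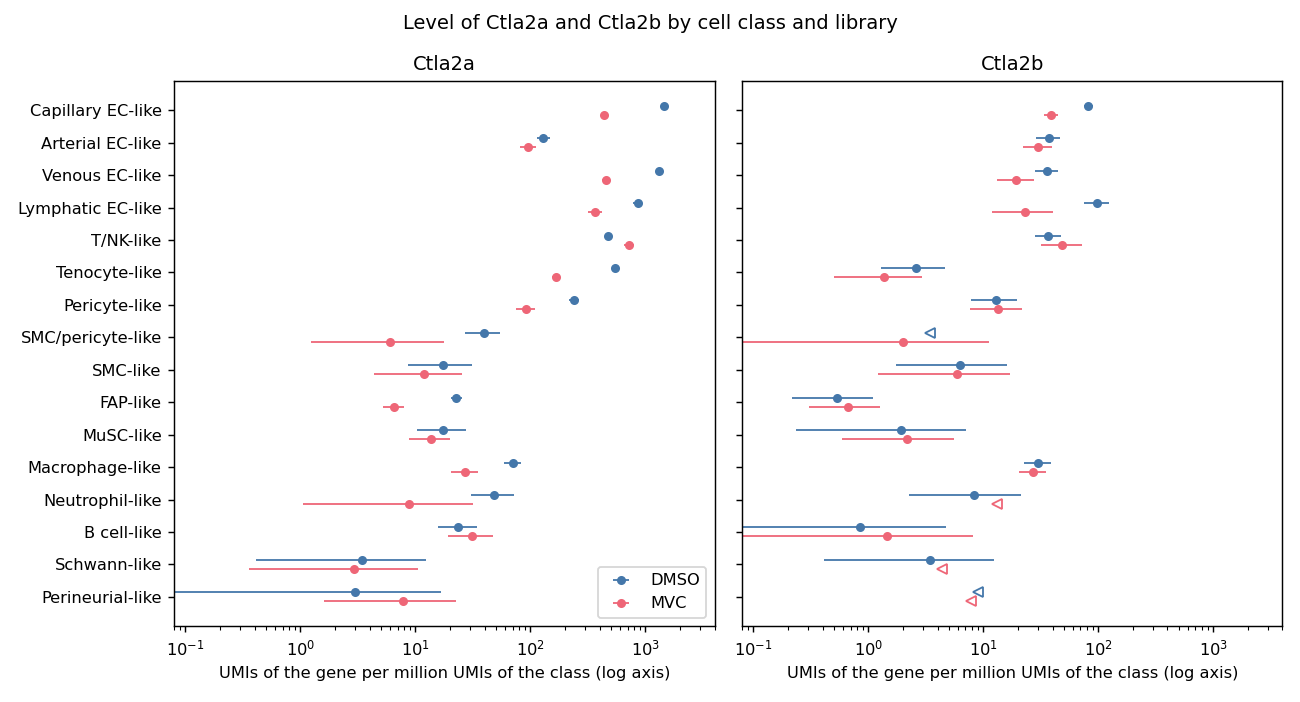
Level of Ctla2a (left) and Ctla2b (right) in 16 cell classes, in UMIs of the gene per 1e6 UMIs of the class on a log axis, with the DMSO library in blue and the MVC library in red. Points are levels, lines are exact 95% Poisson intervals and open triangles stand at the level of 3 UMIs where the gene had 0. Ctla2a sat between 364 and 1456.5 CPM in capillary, venous and lymphatic cells and between 95.0 and 129 CPM in arterial cells.

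Among the EC classes, the libraries differed most in capillary cells for Ctla2a and in lymphatic cells for Ctla2b. The Ctla2a ratio was 0.300 (0.287 to 0.315) in Capillary EC-like, 0.344 (0.317 to 0.374) in Venous EC-like and 0.425 (0.358 to 0.502) in Lymphatic EC-like cells. In Arterial EC-like cells it was 0.734 (0.596 to 0.902), a log2 value of −0.45 that moved to −0.10 when genes were centred within each library before clustering. The arterial interval did not reach those of the other 3 classes. For Ctla2b the ratio was 0.476 (0.402 to 0.562) in Capillary EC-like and 0.543 (0.344 to 0.837) in Venous EC-like cells. It was 0.236 (0.116 to 0.442) in Lymphatic EC-like cells, from 63 and 12 UMIs, and 0.811 (0.550 to 1.19) in Arterial EC-like cells. The order of the EC classes was therefore not the same for the pair, and the lymphatic value of Ctla2b rested on few molecules.

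Among all EC-like cells Ctla2a had a ratio of 0.317 (0.305 to 0.330) and Ctla2b one of 0.491 (0.427 to 0.563), both past 2-fold. The interval of Ctla2b included 0.5, and under a stricter cell filter (1000 genes, 5% mitochondrial UMIs) its log2 ratio was −0.982 in EC-like and −0.998 in Capillary EC-like cells, short of 2-fold. Of 11921 genes with at least 50 UMIs in these cells, 1.04% were at least 2-fold lower in MVC and 2.6% at least 2-fold higher, and nothing is read from this share because the genes were chosen on this contrast. Ctla2a had the 31st and Ctla2b the 119th lowest ratio. In Capillary EC-like cells they were the 15th and 69th lowest of 10284 genes, where 0.895% were at least 2-fold lower. The corresponding background was 0.627% of 6544 genes in Arterial EC-like, 2.23% of 6674 in Venous EC-like and 4.22% of 3913 in Lymphatic EC-like cells. Scaling by the median ratio over genes in place of the total moved all capillary log2 ratios down by 0.103.

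**Figure D2:**
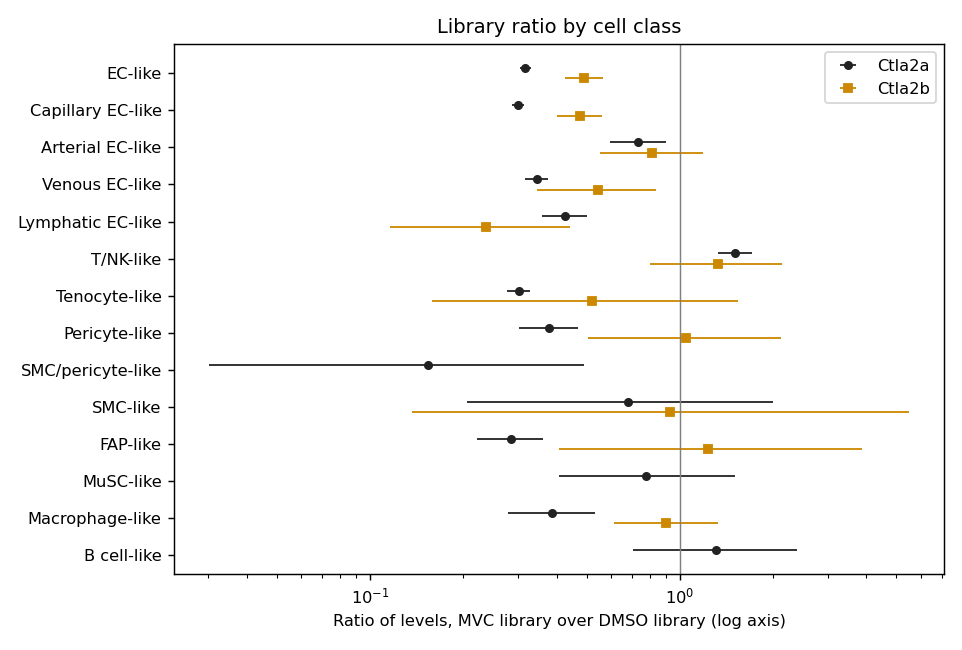
Ratio of the level in the MVC library over that in the DMSO library, on a log axis, for Ctla2a (circles) and Ctla2b (squares) in EC-like cells and in each cell class with at least 3 Ctla2a UMIs per library. Lines are exact 95% intervals and the grey line marks a ratio of 1. T/NK-like cells, at 1.51, were the class whose Ctla2a interval lay above 1. Over all 17 classes, drawn or not, the interval lay below 1 in 10. Neutrophil-like cells, with 23 and 2 UMIs, are among those 10 and are not drawn.

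The share of cells with a UMI differed in the same direction in capillary, venous and lymphatic cells. Ctla2a was detected in 84.2% of Capillary EC-like cells of the DMSO library and in 45.5% of those of the MVC library, at a median of 3334 and 2776 UMIs per cell. With every cell thinned to 2000 UMIs the shares were 79.0% and 44.9%, a difference of −34.1 percentage points (−37.7 to −30.4), after 268 and 575 shallower cells were left out. In B cell-like cells, the class taken as background, Ctla2a was detected in 2.91% and 3.77% of cells at a median of 5071 and 5333.5 UMIs, and in 1.98% and 1.10% after thinning. Detection in capillary cells was thus far above this background in both libraries. Thinned shares were 74.8% and 50% in Venous EC-like cells and 65.3% and 36.4% in Lymphatic EC-like cells. In Arterial EC-like cells they were 17.6% and 12.3%, and the interval of the difference included 0 (−5.31 points, −11.2 to 0.735). Ctla2b was detected in 22.0% and 10.1% of Capillary EC-like cells, and in 13.5% and 7.58% after thinning, a difference of −5.96 points (−8.31 to −3.54). It had 1 UMI in the B cell-like cells of each library and none after thinning.

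Cells rich in Ctla2a were scarcer in the MVC library. Cells with at least 10 Ctla2a UMIs, a limit set with the data in view, were 18.1% of Capillary EC-like cells in DMSO and 2.02% in MVC. They were 39.8% and 5.63% of Venous EC-like cells and 30.7% and 6.33% of Lymphatic EC-like cells. The median Capillary EC-like cell held 4 Ctla2a UMIs in DMSO and 0 in MVC. In Arterial EC-like cells such rich cells made up 0.932% and 0.727%. These shares are of unthinned cells, which were deeper in the DMSO library in each of the 4 classes.

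**Figure D3:**
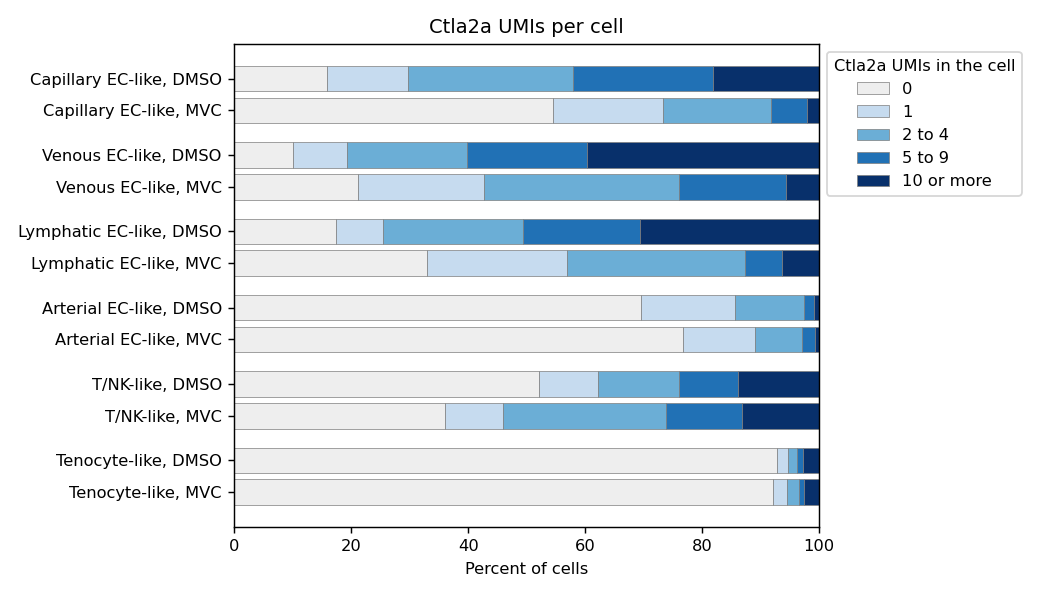
Percent of cells (x axis) with 0, 1, 2 to 4, 5 to 9 and 10 or more Ctla2a UMIs, from light to dark, in 6 cell classes of each library. The darkest segment was 18.1% and 2.02% in Capillary EC-like cells and 39.8% and 5.63% in Venous EC-like cells, and it was 13.8% and 13.1% in T/NK-like cells.

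The capillary class held 5 clusters whose sizes differed between the libraries, so the ratio was also taken within each. Cluster 1 (648 and 413 cells) had Ctla2a at 1423 and 573 CPM, a ratio of 0.403. Cluster 2 (511 and 431 cells) had a ratio of 0.312 and cluster 8 (268 and 293 cells) one of 0.262. Cluster 4 (209 and 448 cells) had 1777 and 345 CPM, a ratio of 0.194. Cluster 18, with 87 and 45 shallow cells (median 1237.5 UMIs), had a ratio of 0.240. It was named from 8 raised capillary markers, and the pericyte marker Rgs5 came first among its most raised genes. Ctla2a was lower in MVC in each of the 5 clusters, at ratios that spanned a range of 0.194 to 0.403. The Ctla2b ratios in clusters 1, 2, 4 and 8 were 0.614, 0.564, 0.225 and 0.461, in the same order as those of Ctla2a. In cluster 18 the Ctla2b ratio was 0.188 (0.00437 to 1.29), from 11 and 1 UMIs. With cluster 18 included the order was not the same, since it lay below cluster 4 for Ctla2b and above it for Ctla2a.

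Depth, the mitochondrial share and red-cell RNA differed between the libraries, and their part in the ratios was not tested. Within 4 bins of UMIs per cell, with equal numbers of cells, the capillary Ctla2a ratio was 0.192, 0.363, 0.300 and 0.308 from the shallowest to the deepest, and within 4 bins of the mitochondrial share it was 0.267, 0.337, 0.353 and 0.226. For Ctla2b the ratios lay between 0.376 and 0.512 over depth and between 0.384 and 0.636 over the mitochondrial share. Both genes were lower in MVC within each bin. The 4 haemoglobin genes summed to 3114 and 1538 CPM in Capillary EC-like cells, of which 20 cells held 99.6% and 97.6%. In capillary cells with no haemoglobin UMI, Ctla2a was at 1448 and 442 CPM, a ratio of 0.305. A list of 20 genes induced by tissue dissociation had a ratio of 0.973 in Capillary EC-like and 1.011 in EC-like cells. Its ratio was 1.20 in Arterial EC-like, 1.11 in Venous EC-like and 0.887 in Lymphatic EC-like cells. In T/NK-like cells it was 1.12 and in Tenocyte-like cells 1.16.

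**Figure D4:**
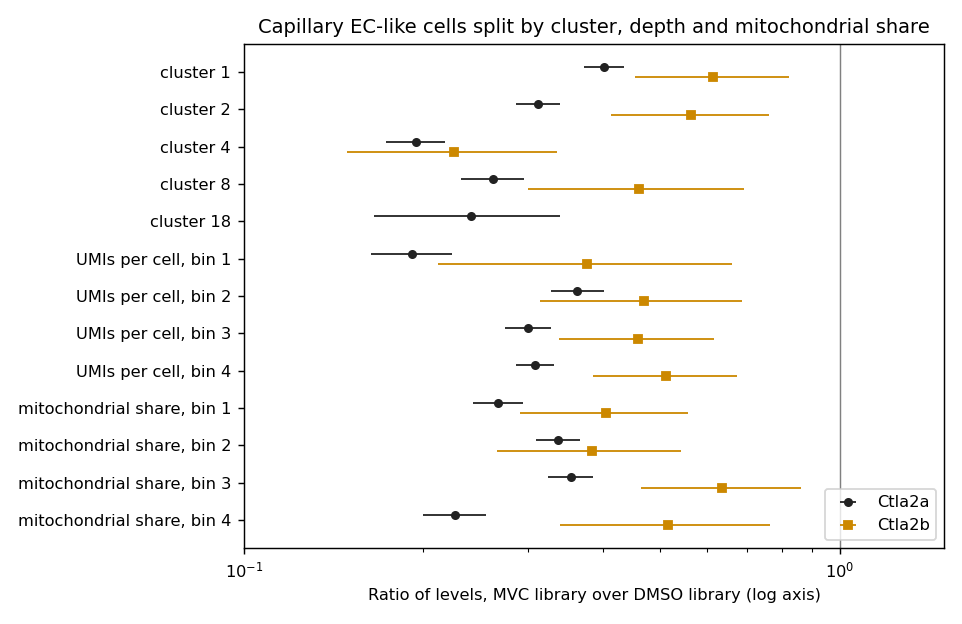
Ratio of the level in the MVC library over that in the DMSO library, on a log axis, for Ctla2a (circles) and Ctla2b (squares) in Capillary EC-like cells, split by cluster, by 4 bins of UMIs per cell and by 4 bins of the mitochondrial share, from lowest to highest. Lines are exact 95% intervals, the grey line marks a ratio of 1, and Ctla2b in cluster 18, with 1 UMI in MVC, is not drawn. All Ctla2a ratios fell between 0.192 and 0.403.

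T/NK-like cells were marked by the T cell receptor complex genes Cd3e, Cd3d, Cd3g and Trac and by Nkg7. Of the 8 markers listed for the class, Klrb1c, Gzma and Ncr1 were not raised. This was the class in which Ctla2a was higher in the MVC library with an interval above 1. B cell-like cells (1.305, 0.705 to 2.38) and Perineurial-like cells (2.60, from 1 and 3 UMIs) had higher values in MVC with intervals that included 1. In T/NK-like cells Ctla2a stood at 476 CPM (444 to 510) in 196 cells of the DMSO library. It was at 718 CPM (647 to 796) in 61 cells of the MVC library, a ratio of 1.51 (1.33 to 1.71). Thinned shares of cells with a UMI were 33.2% and 50.9%, a difference of 17.7 points (3.33 to 31.7). The class was thus the highest of 16 for Ctla2a in MVC, at 1.64-fold the capillary level, and stood at 0.327 of the capillary level in DMSO. Ctla2b was at 36.9 and 48.8 CPM, from 64 and 25 UMIs, and its interval included 1 (1.32, 0.799 to 2.13).

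The size of the T/NK-like ratio rested on few cells. The 3 richest cells held 26.0% of the Ctla2a UMIs in DMSO and 42.4% in MVC, and without them the levels were 357 and 446 CPM, a ratio of 1.25 (1.06 to 1.46). The MVC level was then below the venous level of 454 CPM and near the capillary level of 438 CPM, classes from which no cells were left out. The rank and the 1.64-fold thus depended in part on those 3 cells. With those cells kept, the class stayed the highest in MVC when called doublets were removed, and also by the mean of each cell's own CPM. The summed level of 9 endothelial markers in the class was 329 CPM in DMSO and 988 in MVC, with none of the 9 at 0 in either library, and 58.7% and 59.0% of the cells held at least 1 such UMI. The 10 tenocyte markers summed to 14.4 CPM in DMSO, with 6 of them at 0, and to 1060 CPM in MVC, with Scx at 0. In the 179 and 49 cells with no tenocyte marker UMI, Ctla2a was at 508 and 610 CPM, a ratio of 1.20 (1.02 to 1.40). In the cells with no UMI of those 9 or of 5 mast cell markers, 75 and 23 cells, Ctla2a was at 458 and 805 CPM, a ratio of 1.76 (1.40 to 2.20). Ctla2b, with 21 and 4 UMIs there, had a ratio of 0.748 (0.187 to 2.22), and one of 0.902 (0.464 to 1.64) without the 3 cells richest in Ctla2a, so its direction was not stable. Of these 75 and 23 cells, the 69 and 21 with a UMI of Cd3e, Cd3d or Cd3g had Ctla2a at 322 and 826 CPM. The 6 and 2 without one held 86 and 4 Ctla2a UMIs, at 2742 and 471 CPM. The DMSO level of Ctla2a in marker-free cells with a Cd3 UMI was thus below that of the whole class. Cells with a tenocyte marker UMI were not left out of these parts, and the source of the UMIs was not tested. By the coreceptor genes, a split made after the values were seen, Ctla2a was at 842 and 863 CPM in cells with a Cd8a UMI (48 and 15 cells; ratio 1.03, 0.839 to 1.25). In cells with a Cd4 UMI (46 and 11 cells) it had 36 and 3 UMIs, at 74.7 and 29.4 CPM. In the remaining 102 and 35 cells it was at 491 and 906 CPM (1.84, 1.56 to 2.18). Ctla2a was thus lower in cells with a Cd4 UMI than in those with a Cd8a UMI in both libraries. Among these parts, the ratio had an interval above 1 only in cells with neither UMI. That part was not taken again without the richest cells or those with a tenocyte marker UMI. A cell with neither UMI may still express Cd4 or Cd8a, so the split does not place the difference in a T cell type.

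Tenocyte-like cells, the tendon fibroblasts, carried Ctla2a in a small subset. The class level was 550 CPM in DMSO and 166 in MVC (0.301, 0.277 to 0.328), yet a UMI was found in only 7.25% and 7.88% of the 469 and 533 cells. The 13 and 14 cells with at least 10 UMIs held 97.4% and 91.0% of the UMIs of the class. The 4 richest held 728, 492, 236 and 236 UMIs in DMSO and 123, 107, 96 and 95 in MVC, against a maximum of 108 and 64 in an EC-like cell. The ratio of the class therefore compared a handful of cells, and without cells of at least 10 UMIs its log2 value was 0.04. Those 27 cells held 7054 CPM of Ctla2a and the other 975 held 15.3 CPM. Their summed level of the 10 tenocyte markers was 16232 CPM against 17565 CPM in the others, their summed level of the 9 endothelial markers was 294 against 195 CPM, and 13 of them had no endothelial marker UMI. They held 13 Ctla2b UMIs in all, and 3 of them were called doublets.

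In other classes Ctla2a lay mostly in cells that also held endothelial marker UMIs. Pericyte-like cells, which wrap capillaries, were at 241 and 91.3 CPM, and those with no endothelial marker UMI at 11.3 and 5.12 CPM. Their 13 cells with at least 10 UMIs held 5980 CPM of the endothelial markers against 1801 CPM in the rest, and 53.8% of them were called doublets. FAP-like cells, the fibro-adipogenic progenitors, were at 22.7 and 6.46 CPM, and those without an endothelial marker UMI at 6.87 and 2.26 CPM. Doublets made up 54.5% of the 11 FAP-like cells with at least 10 UMIs. The endothelial markers were at 1968 and 2074 CPM in Pericyte-like and 252 and 332 CPM in FAP-like cells. Ctla2a UMIs came to 12.3% and 4.40% of the endothelial marker UMIs in Pericyte-like cells and to 9.03% and 1.94% in FAP-like cells. In EC-like cells they came to 14.3% and 4.97%. The source of the Ctla2a UMIs in these classes was not tested. MuSC-like cells, the muscle stem cells, were at 17.5 and 13.6 CPM. B cell-like cells were at 23.6 and 30.8 CPM, and the intervals overlapped in each library. Of the 28 and 21 B cell-like UMIs, 16 and 11 lay in 1 called doublet per library. After thinning, a UMI was found in 2.88% and 2.83% of MuSC-like and in 1.98% and 1.10% of B cell-like cells. The order of these 2 classes thus depended on the measure. SMC-like and SMC/pericyte-like cells of vessel walls were at 17.4 and 39.3 CPM in DMSO and at 11.8 and 6.05 CPM in MVC. Schwann-like and Perineurial-like cells had 1 to 3 UMIs per library. Neutrophil-like cells had 23 and 2 UMIs. Myofibre-like cells had 0 in 15 and 26 cells, where 3 UMIs would be 22.1 and 29.5 CPM.

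The balance of the pair differed between classes. Ctla2b made up 5.34% (4.91 to 5.80) of the UMIs of both genes in Capillary EC-like cells of the DMSO library and 8.21% (7.13 to 9.38) in those of the MVC library. In Venous EC-like cells the share was 2.63% and 4.09%, and in Lymphatic EC-like cells 10.2% and 5.97%. Arterial EC-like cells had the largest share of the EC classes, at 22.3% (17.8 to 27.3) and 24.02% (18.3 to 30.5). Among the classes with at least 20 UMIs of the pair in each library, Tenocyte-like cells had the smallest share, at 0.472% and 0.813%. T/NK-like cells were at 7.18% and 6.36%. Macrophage-like cells had the largest share, at 29.9% (23.5 to 37.1) and 50% (40.5 to 59.5). There Ctla2b was at 29.98 and 27.1 CPM (0.905, 0.614 to 1.33) in 21.1% and 18.6% of cells, while Ctla2a was at 70.1 and 27.1 CPM (0.387, 0.278 to 0.532). In Macrophage-like cells without an endothelial or mast cell marker UMI the log2 ratio of Ctla2a was −0.47, against −1.37 in all of them. The median depth of the class was 11166 and 9511.5 UMIs per cell, against 5071 and 5333.5 in the B cell-like cells, where Ctla2b was found in 0.485% and 0.943% of cells.

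**Figure D5:**
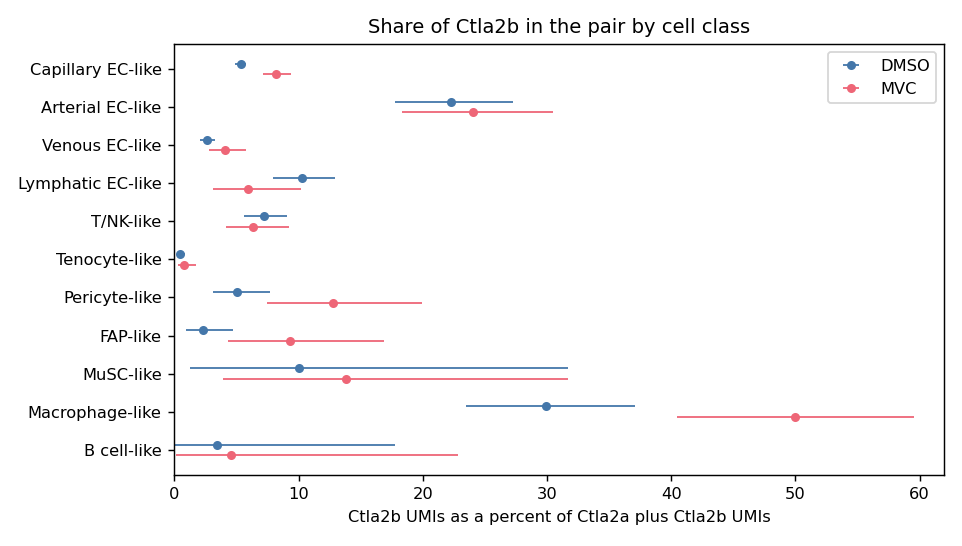
Ctla2b UMIs as a percent of the UMIs of Ctla2a and Ctla2b together (x axis) by cell class, in the DMSO library (blue) and the MVC library (red), for classes with at least 20 such UMIs in each library. Lines are exact 95% binomial intervals. Macrophage-like cells lay highest, at 29.9% and 50%, and Tenocyte-like cells lowest, at 0.472% and 0.813%.

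Within a class Ctla2b was detected more often in cells with Ctla2a than in cells without it. Among Capillary EC-like cells thinned to 2000 UMIs, Ctla2b was detected in 14.7% of 1150 cells with Ctla2a (12.7 to 16.9) and in 9.18% of 305 cells without it (6.19 to 12.99) in DMSO. In MVC the shares were 9.70% of 474 cells and 5.85% of 581 cells. In T/NK-like cells they were 7 of 64 cells (4.51% to 21.2%) and 0 of 129 cells (up to 2.82%) in DMSO, and 4 of 29 cells and 0 of 28 in MVC. The direction was the same in both libraries and both classes, and the intervals overlapped except in the T/NK-like cells of the DMSO library.

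Lysosomal cysteine proteases, which include the cathepsins that the pair resembles in part, were followed as a list. Of its 19 genes, 18 cysteine cathepsins and legumain, a protease of another family, 10 had at least 50 UMIs in EC-like cells. None was past 2-fold in either direction, which over all genes was met by 1.04% downward and 2.6% upward, so that 0 of 10 is near the background. In this list 7 were lower and 3 higher in MVC, and the median log2 ratio was −0.15 against 0.07 over all genes. Ctsl, the cathepsin L that CTLA-2α inhibits, was at 387.5 and 291 CPM (0.751, 0.715 to 0.789) in EC-like cells. Ctsb, the cathepsin B gene, was at 275 and 212 CPM (0.772, 0.729 to 0.818). Lgmn, which codes for the asparaginyl endopeptidase legumain, had the lowest ratio of the list, at 0.547 (0.481 to 0.621), from 72.9 and 39.8 CPM. Ctso was at 12.99 and 19.6 CPM (1.51, 1.20 to 1.90). The intervals of Ctsz, Ctsh, Ctsc, Ctsk, Ctsf and Ctss included 1, with ratios between 0.840 and 1.19.

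Cystatins are the other main family of cysteine protease inhibitors. Of 21 listed, 19 were in the matrices and 2 had at least 50 UMIs in EC-like cells. Cst3, cystatin C, was at 713 and 774 CPM (1.08, 1.05 to 1.12), and Cstb, cystatin B, at 55.6 and 50.03 CPM (0.899, 0.794 to 1.02). By EC class Cst3 was higher in MVC in Capillary EC-like (381 and 568 CPM; 1.49, 1.41 to 1.57), Venous EC-like (1.33) and Lymphatic EC-like cells (1.48), and lower in Arterial EC-like cells (2214 and 1556 CPM; 0.703). Among the EC classes Cst3 was thus highest in arterial cells, where Ctla2a was lowest. Tpbpa and Tpbpb, the trophoblast genes that share the propeptide-like fold, were nearly absent, with 0 UMIs of Tpbpa in all cells and 5 and 3 of Tpbpb, all in Capillary EC-like cells.

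Of the genes around the pair on chromosome 13, 4930486L24Rik (chr13:60842612-60864475) was higher in Capillary EC-like cells, at 32.3 and 25.1 CPM, than in T/NK-like cells, at 6.91 and 5.86 CPM, and had 2 and 4 UMIs in Tenocyte-like cells. Its coding sequence was identical to that of Ctla2b at 268 of 337 aligned bases (79.53%), and no 50-base word was shared with either gene. It was at 26.2 and 17.4 CPM in EC-like cells (0.665, 0.543 to 0.812). By class its ratio was 0.777 (0.618 to 0.974) in Capillary EC-like, 0.494 (0.256 to 0.909) in Arterial EC-like and 0.240 (0.0819 to 0.581) in Venous EC-like cells, the last from 32 and 6 UMIs. It was lower in MVC in these 3 classes, in another order than the pair. The placental cathepsins nearby, Ctsj, Ctsq, Ctsr and Cts6, had 0 UMIs.

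Likeness of pattern was measured by Pearson's r of log2(CPM + 1) over 32 groups, 16 classes in each of the 2 libraries, among 13094 other genes. The groups share libraries and depth, so r is a description. Ctla2b was the gene most like Ctla2a (r = 0.779), followed by Fli1 (0.765), an ETS transcription factor of endothelium and blood cells, Rlim (0.761), a ubiquitin ligase, 4930486L24Rik (0.748) and Prkch (0.746), a protein kinase C. Lratd2, Gm20663, Robo4, Fzd6 and Gm15614 completed the 10, at 0.745 to 0.723. Robo4 is an endothelial guidance receptor and Fzd6 a Wnt receptor. The gene most like Ctla2b was 4930486L24Rik (0.887), followed by Zfand2a (0.845), Elk3 (0.832), an ETS factor, Gata2 (0.832), a zinc-finger factor of blood and endothelium, and Sigirr (0.830). Prkch, Msn, Parvb, Gm20663 and S1pr1, the endothelial sphingosine 1-phosphate receptor, completed the 10, at 0.825 to 0.802. Ctla2a, at 0.779, was not among these 10. The 2 lists shared 3 genes. In Capillary EC-like cells, 4 of the 10 genes most like Ctla2a were lower in MVC and 6 higher, and of the 10 most like Ctla2b 5 were lower and 5 higher. The median log2 ratio over the 10284 genes measured in that class was 0.10, and nothing is read from these counts. Fli1 was at 743 and 829 CPM there and S1pr1 at 579 and 413 CPM.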

How the data were processed

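Gene-by-cell UMI counts were analysed as the authors deposited them, 1 matrix per library, and no other columns were used. The submitters' processing notes name Cell Ranger 7.0.0, Seurat 5.0.1 and the build mm10. The counts are raw and were not normalized by the authors. As in the study's methods, a cell needed 500 or more detected genes and a mitochondrial share of 10% or less.

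Cells of both libraries were clustered together with scanpy 1.11.5 and leidenalg 0.10.2 (1999 variable genes without Ctla2a and Ctla2b, 30 principal components, 20 neighbours, resolution 1). Clusters were named from marker lists where at least 3 markers were raised (SMC/pericyte-like where both lists were), and names rebuilt in this way may differ from the study's. A caller based on simulated doublets marked 236 (4.34%) and 238 (4.36%) cells, which were kept in the values given. UMIs were summed per class and library and divided by the class total. Ratio intervals were conditional binomial (scipy 1.17.1), shares exact binomial, and the floor for a count of 0 was 3 UMIs. The ratio step was tested on simulated data. Genes were ranked by ratio within a class from a minimum of 50 UMIs over both libraries. Named genes were the pair, each listed cathepsin, cystatin or propeptide-related gene with at least 50 UMIs in EC-like cells, and the 10 genes most like each member. Transcripts came from GENCODE M21 and upstream sequences from the RefSeq table of GRCm38.p6. The readthrough gene models that span both genes are not among the features and were not used here. The members and all lists were chosen with earlier results of these data known. The limit of 10 UMIs per cell, the splits by Cd4, Cd8a and Cd3 and the motifs were chosen after values were seen.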

Additional observations from a re-analysis of the deposited data

Results flagged for a closer look

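The Ctla2a ratio of MVC over DMSO in T/NK-like cells was 1.51, above 1, and in EC-like cells it was 0.317, below 1. It was picked out because the single libraries of each class moved in opposite directions, and the difference between the classes was not tested. The T/NK-like value came from 196 and 61 cells. With the 3 richest cells of each library left out it was 1.25 (1.06 to 1.46), and in cells with no tenocyte marker UMI 1.20 (1.02 to 1.40). In EC-like cells the 3 richest cells held 2.05% and 3.97% of the Ctla2a UMIs, against 26.0% and 42.4% in T/NK-like cells.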

How the results depend on the processing

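Of 133 alternative log2 ratios, 117 stayed within the counting interval of the value given and 3 had the other sign, that of Ctla2a in Tenocyte-like cells and 2 of Ctla2b in T/NK-like cells (0.41), at −0.15 without the 3 cells richest in Ctla2a and −0.42 without marker-bearing cells. Log2 ratios of Ctla2a (MVC over DMSO) follow, with the value given first. In EC-like cells (−1.66) the mean of each cell's own CPM gave −1.76 and scaling by the median ratio −1.73. In Capillary EC-like cells (−1.73) these gave −1.86 and −1.84, the stricter cell filter gave −1.67, and classes from each cell's own markers gave −1.64. In Arterial EC-like cells (−0.45) centring genes within libraries before clustering gave −0.10. In T/NK-like cells (0.59) leaving out the 3 richest cells gave 0.32, leaving out cells with an endothelial or mast cell marker UMI gave 0.81, and leaving out those with a tenocyte marker UMI gave 0.26. In Tenocyte-like cells (−1.73) the stricter filter gave −1.95 and the mean of cells −0.32, and leaving out cells with at least 10 Ctla2a UMIs turned the sign, at 0.039. The difference in the share of Capillary EC-like cells with a Ctla2a UMI was −38.6 points without thinning, and for Ctla2b it was −11.9 points without thinning and −3.33 points at 1000 UMIs. The capillary over arterial fold of Ctla2a in DMSO was 9.70 as a mean of cells. Genes at least 2-fold lower in EC-like cells numbered 124, and 308 or 37 with a minimum of 20 or 200 UMIs. Those at least 2-fold higher numbered 310, and 613 or 98. In Capillary EC-like cells 92 were lower, and 242 or 35. The median log2 ratio of the cathepsin list was −0.032 without doublets, and that of the cystatins −0.15 over the 3 genes with at least 20 UMIs. The alternatives that leave out cells by their own UMIs were chosen after seeing the data. The cause of these movements was not tested. No paired analysis was possible because each group has 1 library. Depth limits Ctla2b in particular, which had 12 UMIs in the Lymphatic EC-like cells of the MVC library.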
